A study of Mus musculus with 21 samples.

Results

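The genes that set the entry into the cell cycle were followed through the differentiation of mouse embryonic stem cells (mESCs) into motor neurons (MNs). They are the D-type cyclins Ccnd1, Ccnd2 and Ccnd3, their partner kinases Cdk4 and Cdk6, the Cip/Kip inhibitor Cdkn1b (p27Kip1) and the INK4 inhibitors Cdkn2a, Cdkn2b, Cdkn2c and Cdkn2d. They were chosen by name, because the locus that holds Cdkn2a is a classic target of H3K27 methylation, and make up 10 of the 55400 gene rows measured. Polyadenylated RNA was sequenced from 21 libraries in 7 groups of 3 biological replicates, all of genotype WT and all grown from C57BL/6 mESCs that had been kept on mitomycin-C-treated fibroblasts. Embryoid bodies received 1 µM retinoic acid and 0.5 µM SAG, a Sonic Hedgehog agonist, from day 2. The protocol adds 5 µM DAPT, a Notch inhibitor, at day 4 and day 5. At day 5 it puts DAPT in a basal medium for which neither retinoic acid nor SAG is listed. From D5 to D6, and so from D4 to D6, this change of medium and the stage cannot be told apart. The untreated groups were D4 (MN progenitors), D4H8 (8 h later), D5 (newborn MNs) and D6 (mature MNs). The other 3 groups, D4H8, D5 and D6 with GSKJ4, received this inhibitor of the H3K27 demethylase Kdm6b for the last day before collection. The study describes the replicates as independent experiments. The dose of GSKJ4, the vehicle given to the untreated cultures and whether D4 libraries were taken before or after the first DAPT were not given in the sources used here. Each library was a bulk sample of a mixed culture, in which fewer cells of a type and less RNA per cell cannot be told apart.

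D-type cyclins bind and activate CDK4 and CDK6, and the active kinases phosphorylate the retinoblastoma proteins, which releases E2F factors and lets a cell leave G1. In neural progenitors the D cyclins link mitogens such as Sonic Hedgehog to division, and neurons are postmitotic cells in which this step is shut. The INK4 proteins bind CDK4 and CDK6 directly and keep cyclin D away, whereas p27Kip1 acts mainly on the cyclin E and cyclin A complexes of CDK2 and is itself held by cyclin D complexes. Cdkn2a encodes p16INK4a and, from a separate first exon and another reading frame, p19ARF, which stabilizes p53. Polycomb complexes mark the Cdkn2a and Cdkn2b locus with H3K27me3, the mark that Kdm6b removes.

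The Cdkn2a locus and Cdkn2d are the members whose promoters bear most on these comparisons: the former is the H3K27-regulated locus, and the latter was the INK4 gene with the highest mean level in every group. Their promoter windows, from 250 bases before to 50 bases after an annotated start, are printed from RefSeq (GRCm38.p6), 5′ to 3′ on the strand of the gene. Capitals mark matches on either strand to the E2F motif (TTTGGCGC, TTTCCCGC, TTTCGCGC or TTTGCCGC), the GC box (GGGCGG), the CCAAT box, the cyclic AMP response element (TGACGTCA), an E-box (CAGCTG) or the TATA box (spelled TATAAA), and some matches overlap.
Cdkn2a window 1, chr4:89294570-89294869, minus strand: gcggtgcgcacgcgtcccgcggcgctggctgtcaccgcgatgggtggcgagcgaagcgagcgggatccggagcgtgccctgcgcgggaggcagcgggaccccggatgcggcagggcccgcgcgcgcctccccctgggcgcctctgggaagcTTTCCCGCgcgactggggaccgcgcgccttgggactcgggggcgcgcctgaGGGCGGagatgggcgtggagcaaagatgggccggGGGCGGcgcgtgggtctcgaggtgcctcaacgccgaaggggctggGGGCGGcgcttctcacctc
Cdkn2a window 2, chr4:89282143-89282442, minus strand: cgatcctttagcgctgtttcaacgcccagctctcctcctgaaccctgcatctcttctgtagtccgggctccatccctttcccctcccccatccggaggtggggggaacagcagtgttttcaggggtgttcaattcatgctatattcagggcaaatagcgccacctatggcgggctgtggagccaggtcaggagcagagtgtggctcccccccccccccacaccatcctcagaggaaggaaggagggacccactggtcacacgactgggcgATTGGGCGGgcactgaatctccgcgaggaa
Cdkn2b, chr4:89310983-89311282, minus strand: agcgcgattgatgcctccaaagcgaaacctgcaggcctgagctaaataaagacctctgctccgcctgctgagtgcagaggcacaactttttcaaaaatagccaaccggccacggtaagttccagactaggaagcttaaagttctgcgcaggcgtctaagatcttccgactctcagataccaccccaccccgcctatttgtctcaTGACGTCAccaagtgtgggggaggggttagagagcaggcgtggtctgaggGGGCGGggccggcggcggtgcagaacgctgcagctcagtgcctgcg
Cdkn2d, chr9:21291160-21291459, minus strand: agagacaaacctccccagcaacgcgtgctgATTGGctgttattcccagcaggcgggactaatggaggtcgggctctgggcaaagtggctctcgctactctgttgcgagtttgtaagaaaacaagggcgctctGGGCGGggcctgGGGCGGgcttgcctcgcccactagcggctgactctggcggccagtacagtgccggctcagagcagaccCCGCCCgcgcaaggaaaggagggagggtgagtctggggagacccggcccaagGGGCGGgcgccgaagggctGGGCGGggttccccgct
The upstream start of Cdkn2a (window 1) belongs to the ARF transcript and the downstream start (window 2) to the INK4a transcript. Window 1 was the richest in G and C of the 11 member windows, at 77.0%, beside a median of 52.7% over 32851 RefSeq windows of the same length. It held the only E2F match among the members, with its first base at position -99 from the start, a motif found in 2.26% of all windows. The Cdkn2b window held the only cyclic AMP response element, at position -46, which 1.79% of all windows share. A GC box was present in 9 of the 11 windows of the 8 members with an entry, against 35.7% of all windows. The CCAAT box was present in 5 of 11 windows (37.4% of all windows), the TATA box in 1 window, that of Cdk6 (13.6%), and the E-box in 0 windows (16.3%). Ccnd1 and Ccnd2 had no entry in the promoter table.

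The libraries held 14982115 to 34383842 counts assigned to genes, with a median of 16238435. The deepest was D4H8 replicate 1, beside 16255006 and 14982115 counts in replicates 2 and 3 of its group. Replicate 2 of D5 with GSKJ4 stood apart, with 39381 genes at 0 counts where the other libraries had 29339 to 32805. The labelled cell type was checked against its markers. The summed level of 8 MN markers was 9.49 to 24.2 FPKM (a read count scaled by exonic gene length and library size) over the D4 libraries and 612 to 672 FPKM over the D6 libraries, with 8 of 8 called higher. The summed level of 10 cycling cell markers was 956 to 1020 FPKM at D4 and 77.5 to 204 FPKM at D6, with 10 of 10 called lower. The summed neural progenitor markers overlapped between D4 (180 to 289 FPKM) and D6 (160 to 224 FPKM), with 6 of 9 called lower and 1 higher. Those of other ventral spinal types were 17.4 to 21.3 FPKM at D4 and 37.5 to 55.7 FPKM at D6, with 7 of 9 tested called higher. Vascular and blood cell markers summed to 1.24 to 5.35 FPKM. Pluripotent cell markers were detected in every group, and their summed level was lowest in replicate 1 of all 7 groups. At D6 it was 12.8, 102.1 and 91.6 FPKM in replicates 1, 2 and 3.

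The 3 D cyclins and both kinases fell between D4 and D6, as did Cdkn2a and Cdkn2c, while Cdkn2d rose 2.99-fold and Cdkn1b rose slightly. In that comparison 9 of the 10 members passed the threshold of an adjusted p of 0.05 (edgeR quasi-likelihood test with Benjamini-Hochberg adjustment over all genes tested), 7 lower and 2 higher. Of all genes tested 63.9% passed it, 31.0% lower and 32.9% higher. The median log2 change of the members was -1.24, beside -0.04 over all genes. Every member passed the filter on low counts in every untreated comparison.

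**Figure D1:**
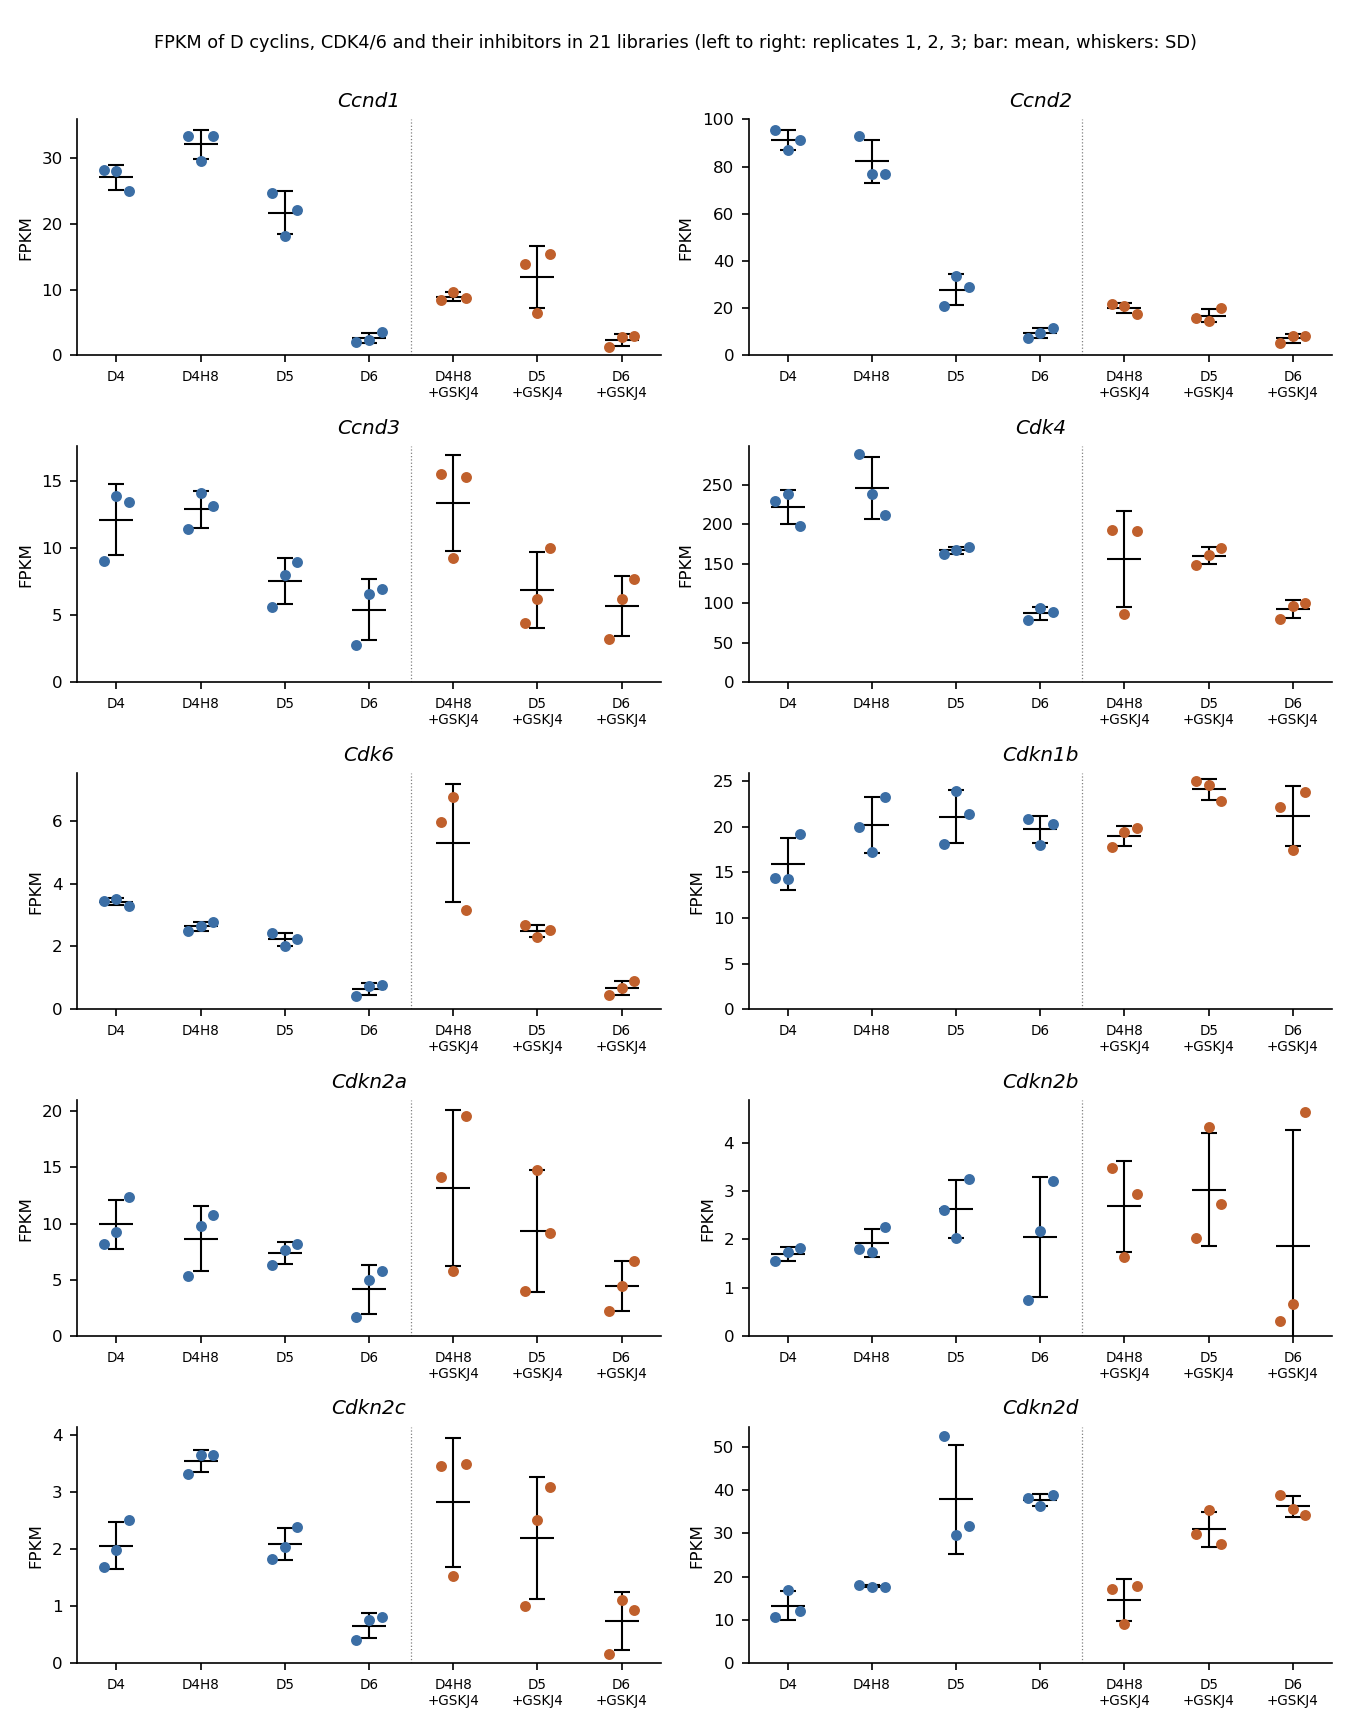
Level of each of the 10 genes in FPKM (vertical axes, from 0, a separate scale for each gene) in the 7 groups (horizontal axes). Points are the 3 libraries of a group, bars the mean and whiskers the SD, cut at 0 where they would pass below it. Ccnd1 and Ccnd2 are low in all 3 D4H8 libraries with GSKJ4 and Cdkn2d is high from D5 onwards.

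Ccnd2, the D cyclin with the highest level in progenitors, was at 95.6, 87.1 and 91.4 FPKM in the D4 libraries and at 92.8, 76.7 and 77.1 FPKM at D4H8. It was at 20.8, 33.6 and 29.0 FPKM at D5 and at 7.40, 9.59 and 11.46 FPKM at D6. The D4H8 and D5 libraries were apart, and so were those of D5 and D6. The decrease was 2.96-fold from D4H8 to D5 (log2 change -1.57, SE 0.18, adjusted p = 2.6e-05) and 2.71-fold from D5 to D6 (-1.44, SE 0.18, adjusted p = 6.13e-05). From D4 to D6 Ccnd2 fell 9.29-fold (log2 change -3.21, SE 0.20, adjusted p = 7.72e-09).

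Ccnd1, the D cyclin most closely tied to mitogens, lost most of its level a step later, over the day that follows the change of medium. It stood at 28.3, 28.1 and 25.0 FPKM at D4, at 33.4, 29.6 and 33.4 FPKM at D4H8 and at 24.7, 18.2 and 22.1 FPKM at D5. At D6 it was at 2.03, 2.29 and 3.48 FPKM, far below every D5 library. The change from D4H8 to D5 was -0.56 on the log2 scale (SE 0.17, adjusted p = 0.027), and that from D5 to D6 was -2.96 (SE 0.19, adjusted p = 4.4e-07), a 7.76-fold decrease. Over the whole course it fell 10.0-fold (log2 change -3.33, SE 0.19, adjusted p = 5.19e-09).

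Ccnd3, the D cyclin that persists in many differentiated cells, changed least of the 3. Its values were 9.09, 13.9 and 13.4 FPKM at D4, 11.46, 14.2 and 13.1 FPKM at D4H8, 5.63, 8.0 and 8.98 FPKM at D5 and 2.78, 6.56 and 6.97 FPKM at D6. Replicate 1 was the lowest library in all 4 of these groups. The decrease from D4H8 to D5 was called (log2 change -0.78, SE 0.25, adjusted p = 0.0347), whereas the D5 and D6 libraries overlapped (log2 change -0.37, adjusted p = 0.287). From D4 to D6 it fell 2.14-fold (log2 change -1.10, SE 0.26, adjusted p = 0.00189).

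The make-up of the D cyclin family shifted as its total went from 131 ± 2.09 FPKM (SD, n = 3) at D4 through 127 ± 9.21 at D4H8 and 57.04 ± 5.13 at D5 to 17.5 ± 4.92 at D6. FPKM is scaled by the summed exonic length of each gene, which need not be the length of the transcripts expressed, and shares between genes rest on that scaling. Ccnd2 held 69.9% of the summed FPKM at D4 and 48.4% at D5, when Ccnd1 held 38.6%. At D6 the shares were 55.0% for Ccnd2, 14.98% for Ccnd1 and 30.1% for Ccnd3, the last of which had been 9.32% at D4. By raw counts, which favour a gene of long exonic length such as Ccnd2, the share of Ccnd2 at D4 was 78.6% and that of Ccnd1 at D5 was 24.4%.

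Cdk4 was the most abundant of the 10 genes in every group. It was at 229, 238 and 197 FPKM at D4, at 288, 238 and 211 FPKM at D4H8, at 163, 167 and 172 FPKM at D5 and at 78.3, 93.7 and 89.5 FPKM at D6. The libraries of successive stages were apart from D4H8 onwards. It fell 1.47-fold from D4H8 to D5 (log2 change -0.56, SE 0.15, adjusted p = 0.0115), 1.77-fold from D5 to D6 (-0.83, SE 0.15, adjusted p = 0.00081) and 2.44-fold from D4 to D6 (-1.29, SE 0.15, adjusted p = 4.47e-06). At D6 it was still 87.1 ± 7.94 FPKM (SD, n = 3).

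Cdk6, the second kinase that D cyclins activate, was low throughout and dropped at the last step. Its libraries were at 3.46, 3.5 and 3.29 FPKM at D4, 2.50, 2.64 and 2.79 FPKM at D4H8, 2.44, 2.02 and 2.23 FPKM at D5 and 0.43, 0.75 and 0.76 FPKM at D6. The D6 libraries were all below those of D5, a 3.20-fold decrease (log2 change -1.68, SE 0.18, adjusted p = 1.64e-05). The 2 earlier steps were not called (adjusted p = 0.213 and 0.332), although the libraries were apart at both. From D4 to D6 Cdk6 fell 5.08-fold (log2 change -2.34, SE 0.18, adjusted p = 9.28e-08). The share of Cdk4 in the summed FPKM of both kinases had a group mean of 98.5% at D4, 96.0% at D4H8 with GSKJ4 and 99.3% at D6.

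Cdkn1b changed the least of the members that were called. It was at 14.3, 14.2 and 19.3 FPKM at D4, 20.0, 17.2 and 23.3 FPKM at D4H8, 18.1, 23.9 and 21.4 FPKM at D5 and 20.9, 17.98 and 20.3 FPKM at D6. The D4 and D6 libraries overlapped. No single step was called (adjusted p = 0.333, 0.777 and 0.938), and the change from D4 to D6 was 0.38 on the log2 scale (SE 0.15, adjusted p = 0.0343). Left without any one library in turn, that call was kept in 6 of 12 fits, with log2 changes of 0.29 to 0.46. It was lost without D4 replicate 1 or 2, D5 replicate 2 or 3, or D6 replicate 1 or 3, with adjusted p-values of 0.0631 to 0.143. It was also lost under upper-quartile scaling (log2 change 0.22, adjusted p = 0.186) and in one fit over all 21 libraries (0.34, adjusted p = 0.0738).

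Cdkn2d (p19INK4d) was the only INK4 gene called higher over the course, and the step called was that from D4H8 to D5. From D4 to D4H8 its libraries were apart, but the change was not called (log2 change 0.39, SE 0.21, adjusted p = 0.387). Its libraries held 10.7, 17.02 and 12.1 FPKM at D4 and 18.1, 17.7 and 17.7 FPKM at D4H8. They held 52.4, 29.7 and 31.8 FPKM at D5 and 38.1, 36.2 and 38.8 FPKM at D6. Every D5 and D6 library was above every earlier one, and the highest D5 value was that of replicate 1. The increase from D4H8 to D5 was 2.14-fold (log2 change 1.10, SE 0.21, adjusted p = 0.0015), and the change from D5 to D6 was 0.10 (adjusted p = 0.747). From D4 to D6 it rose 2.99-fold (log2 change 1.58, SE 0.21, adjusted p = 1.89e-05).

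Cdkn2c (p18INK4c), another INK4 inhibitor, had its highest level at D4H8 and then fell. It was at 1.69, 1.98 and 2.50 FPKM at D4, 3.32, 3.64 and 3.65 FPKM at D4H8, 1.83, 2.04 and 2.39 FPKM at D5 and 0.41, 0.75 and 0.81 FPKM at D6, the last from 18, 32 and 34 counts. The D4H8 libraries were above those of D4 and of D5 without overlap. The higher level at D4H8 than at D4 was not called (log2 change 0.74, SE 0.23, adjusted p = 0.1). The decreases from D4H8 to D5 (-0.76, SE 0.23, adjusted p = 0.0245), from D5 to D6 (-1.56, SE 0.25, adjusted p = 0.000384) and from D4 to D6 (-1.58, SE 0.25, adjusted p = 8.23e-05) were.

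Cdkn2a was detected at every stage, at a low level. It was at 8.18, 9.28 and 12.4 FPKM at D4, 5.38, 9.82 and 10.8 FPKM at D4H8, 6.30, 7.64 and 8.17 FPKM at D5 and 1.67, 4.98 and 5.82 FPKM at D6. Replicate 1 was the lowest library in each of these groups. Cdkn2a fell 2.29-fold from D4 to D6 (log2 change -1.20, SE 0.35, adjusted p = 0.0086). The step from D5 to D6 was not called without a replicate block (-0.73, SE 0.35, adjusted p = 0.129) and was called with one (-0.81, adjusted p = 0.0284). That block spanned all 12 untreated libraries. Replicates of the same number deviated together at D5 and D6, and less so between D4 and D6. Gene-level counts do not separate the p16INK4a and p19ARF transcripts.

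Cdkn2b (p15INK4b), which lies next to Cdkn2a and mediates arrest by TGF-beta in other cells, did not pass the test in any comparison of all libraries. Its libraries held 1.55, 1.73 and 1.82 FPKM at D4, 1.80, 1.73 and 2.26 FPKM at D4H8, 2.61, 2.03 and 3.24 FPKM at D5 and 0.75, 2.17 and 3.21 FPKM at D6. The D4 to D6 change was 0.32 on the log2 scale (SE 0.39, adjusted p = 0.495), and leaving out single libraries moved it between -0.14 and 0.70. Each library held only 7 to 107 counts of this gene.

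Cdkn2d came to dominate the INK4 family. It made up 49.0% of the summed INK4 FPKM at D4, 56.2% at D4H8, 74.8% at D5 and 85.0% at D6, while the share of Cdkn2a went from 37.0% at D4 to 9.11% at D6. The family total was 27.0 FPKM at D4, 32.0 at D4H8, 50.02 at D5 and 44.6 at D6. Set against the kinases they bind, the INK4 sum was 0.121 of the summed Cdk4 and Cdk6 FPKM at D4, 0.132 at D4H8, 0.296 at D5 and 0.509 at D6. The ratio of Cdkn1b to the summed D cyclin FPKM went from 0.122 at D4 to 1.20 at D6. These are ratios of transcripts, not of proteins. The INK4 sum includes all reads of Cdkn2a, from which those of p19ARF, not an INK4 protein, could not be separated.

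**Figure D2:**
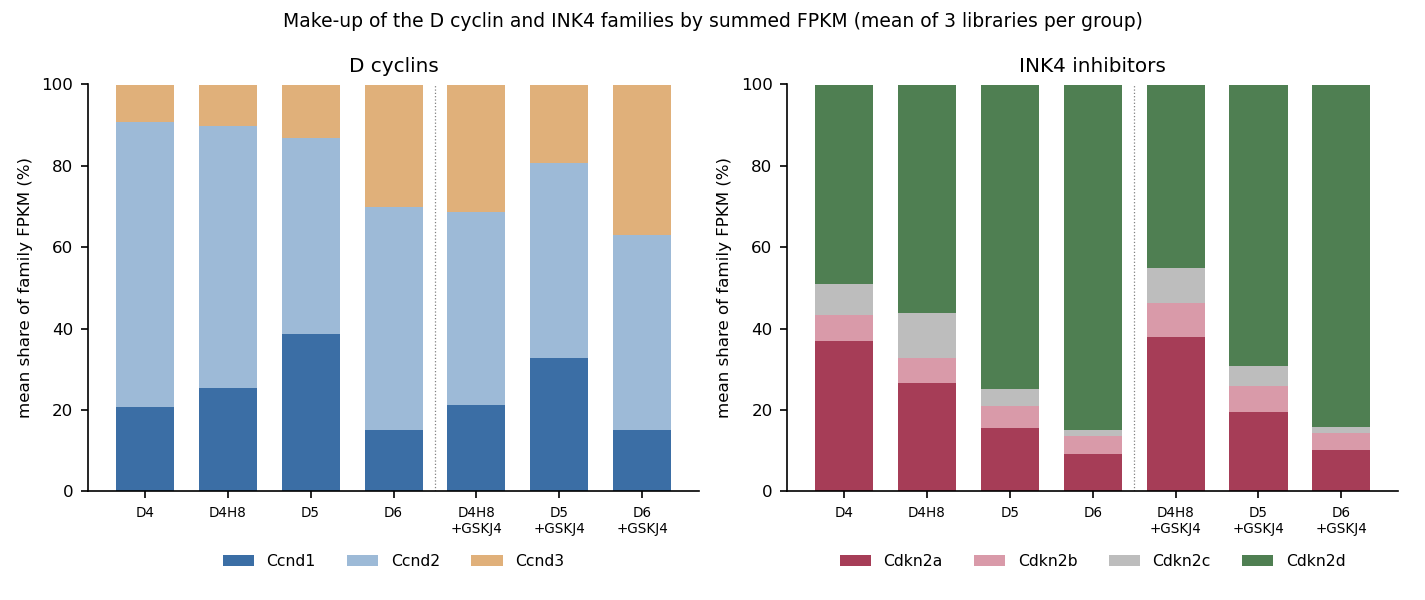
Mean share of each gene in the summed FPKM of the D cyclins and of the INK4 inhibitors (vertical axes, percent, from 0) in the 7 groups (horizontal axes). Ccnd3 takes 9.32% of D cyclin FPKM at D4 and 30.1% at D6, and Cdkn2d takes 49.0% and 85.0% of INK4 FPKM.

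By step, the 8 h from D4 to D4H8 brought 0 member calls (edgeR quasi-likelihood test), with 2 members at an unadjusted p under 0.05 and 1 call, Cdkn2c, by DESeq2 (adjusted p = 0.0151). Of all genes 4.38% were called there, 4.06% higher. From D4H8 to D5 there were 6 calls, 5 lower and 1 higher, beside 27.7% of all genes called, 10.5% lower and 17.2% higher. From D5 to D6 there were 5 calls, all lower (Ccnd1, Ccnd2, Cdk4, Cdk6 and Cdkn2c), beside 15.1% lower and 19.2% higher of all genes. The 5 decreases from D5 to D6 were called in 12 of 12 fits that left out a library. From D4H8 to D5 the calls of Ccnd2 and Cdkn2d held in 12 of 12 fits, that of Cdk4 in 11 and those of Ccnd1, Ccnd3 and Cdkn2c in 9. Cdk4 was lost without D4H8 replicate 1 (adjusted p = 0.0635), and Ccnd1 without D4H8 replicate 1 or 3 or D5 replicate 2 (0.062 to 0.0824). Ccnd3 (0.0761 to 0.135) and Cdkn2c (0.0629 to 0.0779) were both lost without D4H8 replicate 2 or 3 or D5 replicate 1.

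**Figure D3:**
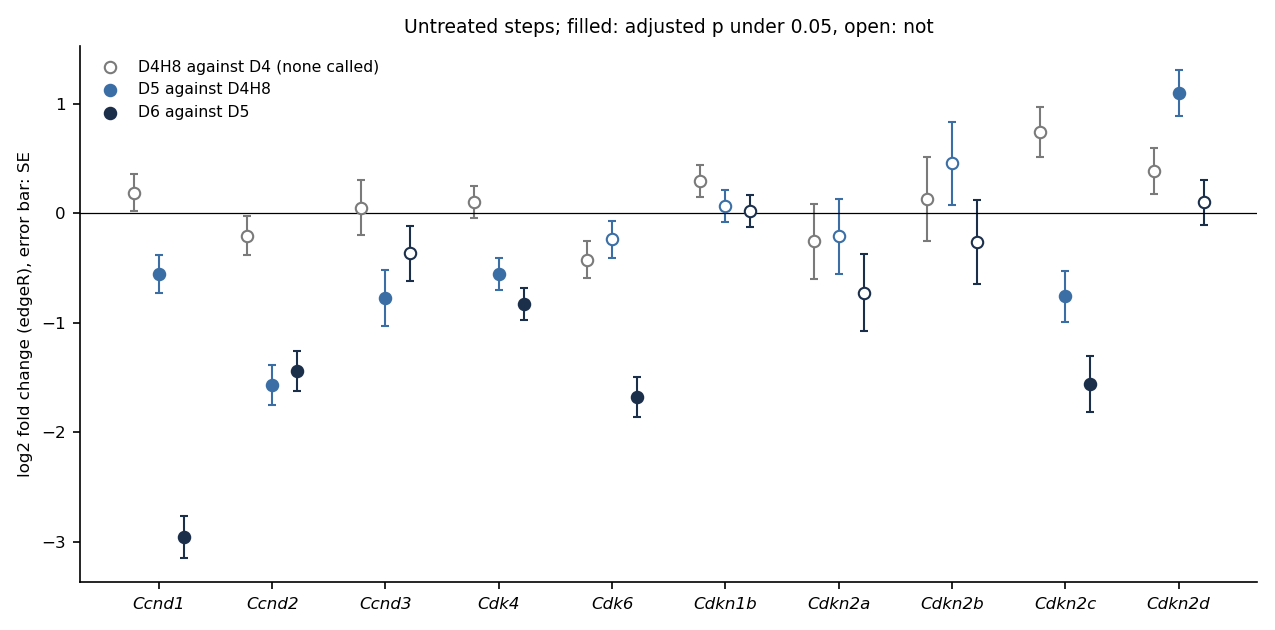
Log2 fold change (vertical axis) of each member (horizontal axis) at the untreated steps D4 to D4H8, D4H8 to D5 and D5 to D6, with SE as whiskers and filled points for an adjusted p under 0.05. Ccnd2 and Cdk4 fall at both later steps, Ccnd1 falls mostly at the last (-2.96), and Cdkn2d rises at the middle step (1.10).

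The cycling cell markers moved with these changes: 10 of 10 were called lower from D4H8 to D5 and 9 of 10 from D5 to D6. Over the 21 libraries the log2 level of their sum had r = 0.892 with that of Ccnd2, 0.887 with Ccnd3 and 0.844 with Ccnd1. The inhibitor Cdkn2c had the same r as Ccnd1, and Cdk4 (0.834), Cdk6 (0.827) and Cdkn2a (0.749) also went with this sum. After the group means were subtracted, r was 0.772 for Ccnd2, 0.803 for Ccnd3 and 0.404 for Ccnd1. Cdkn2d went with the summed MN markers (r = 0.926, and 0.502 after that subtraction). The points share groups and libraries, so these are descriptions, and the part of cell make-up in the changes of the members was not tested.

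The genes that act with the members were taken from pathway lists. Of 25 genes of the Rb and E2F pathway, 19 were lower and 2 higher at D6 than at D4, with a median log2 change of -1.10. Of all genes 31.0% were called lower and 32.9% higher there. The 2 that rose were Rb1 (log2 change 1.47, SE 0.15, adjusted p = 1.28e-06), the retinoblastoma protein itself, and its relative Rbl2 (1.29). The largest decreases were those of Cdk1 (-2.70), the mitotic kinase, Ccna2 (-2.53), its S-phase and G2 cyclin, and E2f7 (-2.38), an E2F repressor. By step, 16 of the 25 fell and 1 rose from D4H8 to D5 (10.5% and 17.2% of all genes). From D5 to D6, 14 fell and 1 rose (15.1% and 19.2% of all genes).

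Of 17 other CDK inhibitors and assembly factors, 7 rose and 9 fell from D4 to D6, beside 32.9% higher and 31.0% lower of all genes. Cdkn1c (p57Kip2), another Cip/Kip inhibitor, went from a mean of 27.9 FPKM at D4 to 197 FPKM at D6 (log2 change 2.90, adjusted p = 1.13e-08), above the D6 mean of every member. Cdk5r1, the neuronal activator of Cdk5, rose by 5.97 and Fbxo31, which targets cyclin D1 for degradation, by 1.72 on the log2 scale. Cks2 (-2.81), Cks1b (-2.13) and Skp2 (-2.01) fell, the last 2 of which act together in the degradation of p27Kip1.

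Of 18 mitogenic inputs to the D cyclins, 13 fell and 4 rose between D4 and D6, with a median log2 change of -1.60. Of all genes 31.0% were lower and 32.9% higher. The list also holds Gli3, Ptch1, Foxo1 and Foxo3, which need not act as a mitogen does, so these counts do not measure mitogenic input. Hes5 (-4.17), a Notch target, and Gli1 (-3.22) and Gli2 (-3.06), effectors of Sonic Hedgehog, fell most, and Jun (2.55), Hey1 (1.43) and Fos (1.09) rose most. DAPT, the Notch inhibitor, is added at day 4, and whether the D4 cultures had received it was not given. For Hes5 and Hey1 its exposure and the stage therefore cannot be told apart. The medium from day 5 lists no SAG, so for Gli1 and Gli2 the end of the agonist and the stage cannot be told apart either. The Ink4/Arf list holds Mdm2 and Trp53 beside regulators of the locus. Of its 25 genes 10 rose and 9 fell, shares not far from the 32.9% higher and 31.0% lower of all genes. Tbx2 (4.85) and Tbx3 (3.00), both repressors of the locus, rose most, while Id1 (-3.29), the Polycomb subunit Eed (-1.48) and Trp53 (-1.15), which encodes p53, fell most.

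Ccnd1 and Ccnd2 were lower at D4H8 in the cultures given GSKJ4 for the day before, and no other member passed the test. These 2 of 10 stand beside 3.96% of all genes called, 1.85% lower and 2.11% higher, in that comparison. Over all genes the main fit called 343 higher and 301 lower, which became 2 and 41, 3 and 47 or 3 and 44 without D4H8 replicate 1, 2 or 3, and 998 and 748 without treated replicate 2. Ccnd1 was at 33.4, 29.6 and 33.4 FPKM without and at 8.43, 9.66 and 8.77 FPKM with GSKJ4. Ccnd2 was at 92.8, 76.7 and 77.1 FPKM without and at 21.6, 20.7 and 17.6 FPKM with it. For both genes all treated libraries lay far below all untreated ones. Ccnd1 fell 3.66-fold (log2 change -1.87, SE 0.18, adjusted p = 0.00275) and Ccnd2 fell 4.22-fold (-2.08, SE 0.20, adjusted p = 0.00275). Both calls held in 6 of 6 fits that left out a library, with log2 changes of -1.997 to -1.81 and of -2.17 to -1.96.

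Ccnd3 was at 15.6, 9.29 and 15.3 FPKM with GSKJ4 at D4H8, around the untreated 11.46, 14.2 and 13.1 FPKM (log2 change 0.00, SE 0.20, adjusted p = 0.996). Its share of the D cyclin FPKM was 31.5% with and 10.2% without GSKJ4, and the family total was 42.3 ± 3.01 against 127 ± 9.21 FPKM (SD, n = 3). The mean treated D4H8 total was below that of untreated D5, at 57.04 FPKM. Differences between single D cyclins were not tested.

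The kinases went in opposite directions at D4H8, neither past the threshold. Cdk6 was at 5.97, 6.75 and 3.17 FPKM with and 2.50, 2.64 and 2.79 FPKM without GSKJ4, apart in all libraries (log2 change 0.99, SE 0.29, adjusted p = 0.0806). The treated group had the highest mean Cdk6 level of the 7 groups. Cdk6 passed the threshold with DESeq2 (adjusted p = 0.0179), without the filter on low counts (0.00128), in one fit over all 21 libraries (0.0166), and, by edgeR without treated replicate 3, at a log2 change of 1.28 (0.0291). Cdk4 was at 192, 86.3 and 191 FPKM with and 288, 238 and 211 FPKM without GSKJ4 (log2 change -0.72, SE 0.28, adjusted p = 0.147). Treated replicate 2 was far below the other two, and without it the change was -0.46 (adjusted p = 0.116). Cdk4 passed without the filter (0.0184) and in the fit over all 21 libraries (0.0236).

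The inhibitors did not pass the test with GSKJ4 at D4H8. Cdkn2a was at 14.1, 5.83 and 19.5 FPKM with and 5.38, 9.82 and 10.8 FPKM without it. The treated libraries included both the highest value of all 21 and one near the lowest untreated one (log2 change 0.55, SE 0.40, adjusted p = 0.422). Without treated replicate 2 the change was 0.88 (adjusted p = 0.098), without treated replicate 3 it was 0.19 (adjusted p = 0.805) and without D4H8 replicate 1 it was 0.30 (adjusted p = 0.773). The remaining values were -0.12 for Cdkn1b (adjusted p = 0.717), 0.42 for Cdkn2b (0.482), -0.39 for Cdkn2c (0.469) and -0.34 for Cdkn2d (0.398) on the log2 scale. These misses do not show that the levels were alike, since the SEs for the 4 INK4 genes were 0.24 to 0.40.

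Treated D4H8 replicate 2 was the lowest of its group for Ccnd3, Cdk4 and all 4 INK4 genes, and not for Ccnd1 or Ccnd2. Its summed neural progenitor markers were also the lowest of its group. Those markers summed to 62.3 to 139 FPKM with and 273 to 388 FPKM without GSKJ4 at D4H8, and 5 of 9 were called lower, with a median log2 change of -2.22. The summed MN markers were 15.8 to 37.7 FPKM with and 60.6 to 63.4 FPKM without it. The summed cycling cell markers were 555 to 734 FPKM with and 869 to 929 FPKM without, with 2 of 10 called lower, Aurka (log2 change -0.99) and Pcna (-0.94). The part of these shifts in the lower Ccnd1 and Ccnd2 was not tested.

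**Figure D4:**
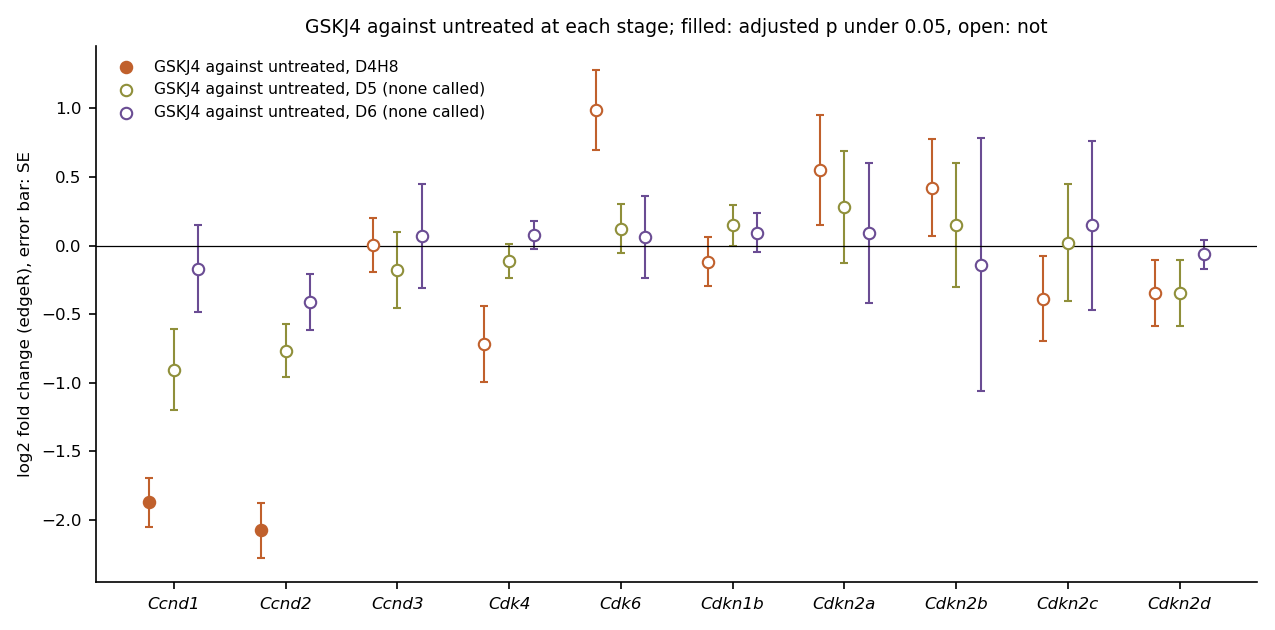
Log2 fold change with against without GSKJ4 (vertical axis) of each member (horizontal axis) at D4H8, D5 and D6, with SE as whiskers and filled points for an adjusted p under 0.05. Ccnd1 (-1.87) and Ccnd2 (-2.08) at D4H8 are the filled points, and at D5 and D6 there are none.

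GSKJ4 up to D5 brought 0 member calls with edgeR, beside 0.00613% of all genes, with 2 members and 767 genes at an unadjusted p under 0.05. These 2 members were again Ccnd1 and Ccnd2. Ccnd1 was at 14.0, 6.46 and 15.4 FPKM with and 24.7, 18.2 and 22.1 FPKM without it (log2 change -0.90, SE 0.30, adjusted p = 0.976). Ccnd2 was at 15.7, 14.7 and 20.2 FPKM with and 20.8, 33.6 and 29.0 FPKM without it (-0.76, SE 0.20, adjusted p = 0.695). For both genes all treated libraries were below all untreated ones. Without the filter on low counts both were called (adjusted p = 0.000424 and 0.00599), and DESeq2 called Ccnd2 (0.0464). Without treated replicate 2, the library with the most genes at 0, the log2 changes were -0.60 and -0.66. Cdkn2a at D5 was at 4.04, 14.8 and 9.19 FPKM with and 6.30, 7.64 and 8.17 FPKM without GSKJ4, and its change of 0.28 turned to -0.20 without that library. The inhibitor Cdkn2d was at 29.9, 35.5 and 27.6 FPKM with GSKJ4, overlapping the untreated 52.4, 29.7 and 31.8 FPKM (log2 change -0.34).

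GSKJ4 up to D6 brought 0 member calls of 0.0% over all genes, with 0 members and 222 genes at an unadjusted p under 0.05, and DESeq2 likewise called 0 members. Ccnd2 was at 5.02, 8.32 and 8.21 FPKM with and 7.40, 9.59 and 11.46 FPKM without it, overlapping but lower in each of the 3 numbered pairs (log2 change -0.41, SE 0.20, adjusted p = 1). Replicates of the same number deviated together in these 2 groups. With the replicate number as a block Ccnd2 was called (-0.42, adjusted p = 0.000896), and over all genes 48 were then called higher and 209 lower. Ccnd1, at 1.33, 2.77 and 2.90 FPKM with and 2.03, 2.29 and 3.48 FPKM without GSKJ4, was not (log2 change -0.17 without the block). Cdkn2a was at 2.21, 4.46 and 6.65 FPKM with and 1.67, 4.98 and 5.82 FPKM without it (0.09, SE 0.51). Cdkn2b with GSKJ4 at D6 spread over 0.31, 0.67 and 4.62 FPKM, from 7, 14 and 107 counts.

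The effect of GSKJ4 on Ccnd2 was smaller at D6 than at D4H8 by 1.68 on the log2 scale (SE 0.30, adjusted p = 0.0123), the only member call among the tests of the differences between stages. It stands beside 0.735% of all genes. The call was kept in 17 of 18 fits that left out a library and lost without D4H8 replicate 1 (1.53, adjusted p = 0.0554). For Ccnd1 the same difference was 1.72 (SE 0.43, adjusted p = 0.0748), and it was called by DESeq2 (0.00866), without the filter (3.49e-06), with at least 10 counts in every library (0.0478) and in one fit over all 21 libraries (0.0406). Between D5 and D4H8 the difference for Ccnd2 was 1.31 (SE 0.30, adjusted p = 0.0995), with 0 member calls beside 0.249% of all genes. That for Ccnd1 was 0.96 (adjusted p = 0.44). At that comparison 3 members and 1817 genes had an unadjusted p under 0.05, and DESeq2 called 1 member, Ccnd2. Between D6 and D5 there were 0 member calls (edgeR), 0 members and 358 genes at an unadjusted p under 0.05, 0 member calls by DESeq2 and 0.0% of all genes called.

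Ccnd1 and Ccnd2 were already low in the D4H8 cultures with GSKJ4, and neither was called lower in the D5 cultures with GSKJ4 than in these. GSKJ4 was given from day 3 plus 8 h for D4H8, from day 4 for D5 and from day 5 for D6. The treated groups are therefore cultures of unlike exposure and not one course under the inhibitor. In the treated libraries Ccnd1 changed by 0.39 (adjusted p = 0.493) and Ccnd2 by -0.27 (adjusted p = 0.458) from D4H8 to D5 on the log2 scale. From D5 to D6 both fell, Ccnd1 by 2.26 (SE 0.36, adjusted p = 0.00311) and Ccnd2 by 1.12 (SE 0.23, adjusted p = 0.00953), the latter call lost without D5 with GSKJ4 replicate 3 (adjusted p = 0.0544). Cdkn2d rose from D4H8 to D5 with GSKJ4 as well (1.08, SE 0.23, adjusted p = 0.00936), a call kept in 9 of 9 fits that left out a library. Cdk6 fell at both treated steps (-1.13, adjusted p = 0.0388, and -1.77, adjusted p = 0.00707), the first in 3 of 9 such fits and lost without replicate 1 or 2 of D4H8, any replicate of D5 or replicate 2 of D6 with GSKJ4 (adjusted p = 0.0632 to 0.125). Cdkn2b was called lower from D5 to D6 with GSKJ4 without D6 replicate 3 alone (-2.46, adjusted p = 0.048). The treated steps had 2 and 3 member calls, beside 14.2% of all genes at the first (9.59% higher, 4.65% lower) and 11.9% at the second (7.24% higher, 4.7% lower). These comparisons share the treated D5 libraries with the tests of GSKJ4 at D5.

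In the 4 lists 6 genes passed the test with GSKJ4 at D4H8, where 3.96% of all genes did. Over all genes the 343 higher and 301 lower calls became 2 and 41, 3 and 47 or 3 and 44 without D4H8 replicate 1, 2 or 3. Fits without single libraries are not reported for these 6 genes. In the Rb and E2F list 1 of 25 was lower, E2f2 (log2 change -1.23, adjusted p = 0.0444). Among the 17 other CDK inhibitors and assembly factors 2 passed: Cdkn1a (p21Cip1), a p53 target that arrests the cycle, rose from a mean of 15.7 to 41.2 FPKM (1.34, adjusted p = 0.038) and Cks2 fell (-0.87, adjusted p = 0.0352). In the Ink4/Arf list, which holds Mdm2 and Trp53 beside regulators of the locus, 1 of 25 passed. This was Mdm2, which degrades p53 and is itself a p53 target. Mdm2 rose from 22.3 to 45.8 FPKM (1.01, adjusted p = 0.0262). Of the 18 mitogenic inputs 2 passed: Hes5 (-3.56, adjusted p = 0.0246) and the receptor Notch1 (-1.10, adjusted p = 0.0492) fell.

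The deviations of Cdkn2a and Ccnd3 between replicates went with those of several marker lists, the pluripotent cell markers among them. Over the 21 libraries the log2 level of Cdkn2a had r = 0.827 with the summed level of 7 such markers, and r = 0.747 after the group means were subtracted from both. For Ccnd3 these values were 0.832 and 0.781, and for Cdkn2c 0.68 and 0.625. In D6 replicate 1, where the marker sum was 12.8 FPKM, Cdkn2a was at 1.67 FPKM, and in D6 replicates 2 and 3, where it was 102.1 and 91.6 FPKM, Cdkn2a was at 4.98 and 5.82 FPKM. The deviations of Cdkn2a also went with those of the fibroblast markers (r = 0.728), whose sum was 15.6 to 36.1 FPKM at D6, with cycling cell markers (0.649) and with markers of other ventral spinal types (0.606). Those of Ccnd3 went as closely with cycling cell markers (0.803) and also with the other ventral types (0.729), and those of Cdkn2c most closely with the latter (0.731). Among the members, the deviations of Cdkn2a went with those of Cdkn2c (r = 0.844), Ccnd3 (0.804) and Cdkn2b (0.75). All these points share their libraries and their depth, and no pluripotent cell or fibroblast marker was at 3 counts or under in every library. The part of any of these cell types in the level of Cdkn2a, Ccnd3 or Cdkn2c was not tested.

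**Figure D5:**
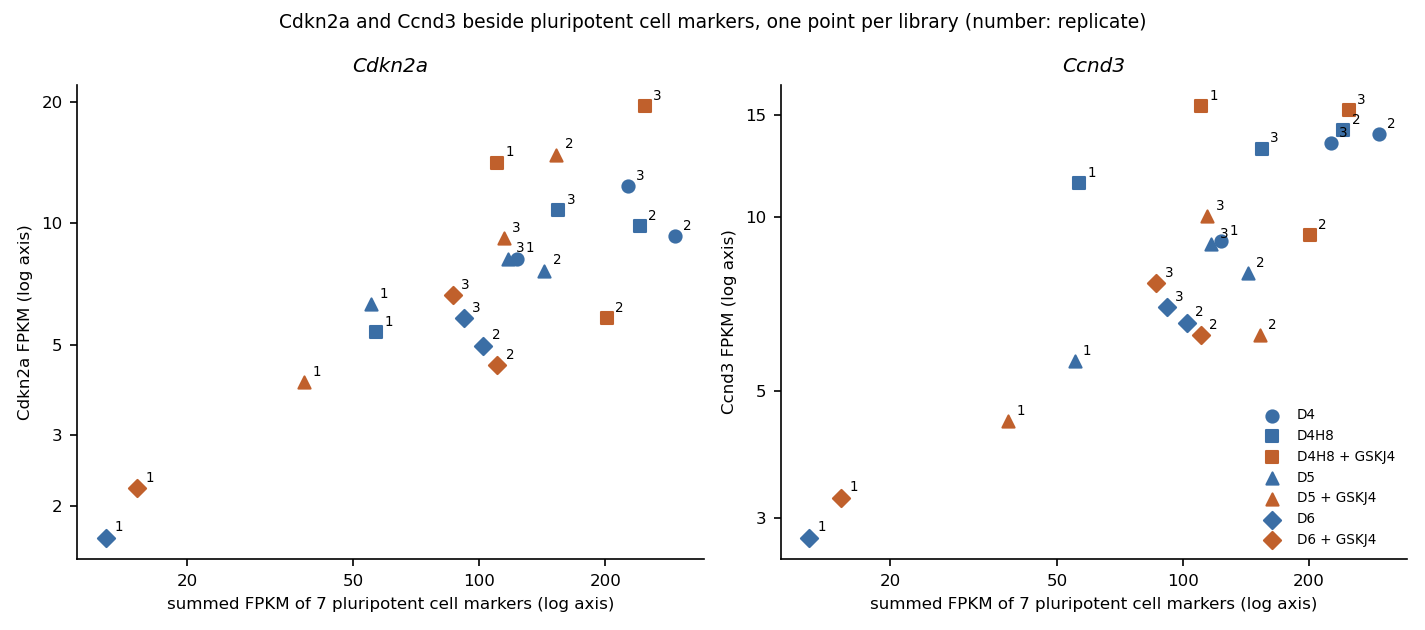
Level of Cdkn2a and of Ccnd3 (vertical axes, FPKM, log scale) against the summed level of 7 pluripotent cell markers (horizontal axes, FPKM, log scale), 1 point per library with its replicate number. The D6 libraries of replicate 1, with and without GSKJ4, lie lowest on both axes, and D4H8 replicate 2 with GSKJ4 lies below the other libraries of similar marker level.

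In the GENCODE annotation of GRCm38 Cdkn2a (ENSMUSG00000044303) lies at chr4:89274471-89294653 and Cdkn2b (ENSMUSG00000073802) at chr4:89306299-89311039, both on the minus strand. Cdkn2c (ENSMUSG00000028551) lies on the same chromosome at chr4:109660876-109667189 and Cdkn2d (ENSMUSG00000096472) at chr9:21288410-21291407, again on the minus strand. The D cyclins are at chr7:144929931-144939925 (Ccnd1, ENSMUSG00000070348, minus strand), chr6:127125162-127152193 (Ccnd2, ENSMUSG00000000184, minus strand) and chr17:47505051-47599691 (Ccnd3, ENSMUSG00000034165, plus strand). Cdk4 (ENSMUSG00000006728, chr10:127063534-127067920), Cdk6 (ENSMUSG00000040274, chr5:3341485-3531008) and Cdkn1b (ENSMUSG00000003031, chr6:134920401-134925513) are on the plus strand. The next protein-coding gene below Cdkn2a, Mtap, an enzyme of methionine salvage, went from 45.9 ± 2.12 FPKM at D4 to 17.3 ± 4.09 at D5 and 8.16 ± 2.75 at D6 (SD, n = 3). With GSKJ4 at D4H8 it was at 29.2 ± 5.75 FPKM, beside 34.1 ± 0.40 without. The next above Cdkn2b, Dmrta1, was at a mean of at most 0.113 FPKM in every group. Members whose exons overlap a gene on the other strand were Ccnd1 with LTO1 (1100 bases), Cdk4 with Tspan31 (641), Ccnd2 with Gm43126 (372) and 9330179D12Rik (368), Cdk6 with Gm17590 (368) and Ccnd3 with Bysl (361). The use of strand in counting was not given in the sources used here, so reads from these stretches cannot be told apart. Tspan31, at group means of 23.4 to 37.9 FPKM, Bysl, at 11.9 to 17.1 FPKM, and LTO1, at 2.42 to 4.65 FPKM, were expressed in every group. At D6 the mean of LTO1 was 4.61 FPKM, above that of Ccnd1, at 2.60 FPKM.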

How the data were processed

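RNA-seq was analysed from 21 libraries. The authors purified polyadenylated RNA, trimmed reads with Fastp, aligned them with HISAT2 to mm10, counted them with HTSeq and deposited raw counts per gene, FPKM computed from counts and gene lengths, and the exonic gene length in bases as another column. The counts were used as deposited; FPKM recomputed from them differed by at most 0.005. Of 55400 gene rows 55140 had a symbol. The use of strand in counting was not given in the sources used here.

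Counts were scaled by TMM, filtered by filterByExpr (minimum count 10) and tested with the quasi-likelihood F-test of edgeR 4.0.16 in R 4.3.3, with Benjamini-Hochberg adjustment and a threshold of 0.05. The SE of a log2 fold change is its size over the root of F. Stage steps were fitted on the 12 untreated or 9 treated libraries, GSKJ4 at each stage on its 6 libraries, and differences of its effect on 18. The test was first tried on simulated data with known changes. The alternatives were DESeq2 1.42.0, scaling by RLE or by the upper quartile, dropping the filter, asking 10 counts of every library, one fit over all libraries, a replicate block and leaving out each library. Tables were handled with pandas 2.3.3.

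Replicates of the same number were taken as paired where their deviations from the group means correlated over 0.1 in all 3 numbers. This held for D4H8 and D5 (0.314, 0.147 and 0.136), D5 and D6 (0.31, 0.144 and 0.226) and D6 with and without GSKJ4 (0.663, 0.316 and 0.446).

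The genes named are the members, up to 3 raised and 3 lowered genes per pathway list with the largest change between D4 and D6 or with GSKJ4 at D4H8, the 3 genes most correlated with each member, and the neighbours of Cdkn2a and Cdkn2b. One gene this rule names is not reported here. Aurka and Pcna fall outside this rule and were named after their values were seen. Members, lists and tests were chosen with earlier results of these data known.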

Additional observations from a re-analysis of the deposited data

Results flagged for a closer look

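The response of Ccnd2 to GSKJ4 differed between stages by a test of the difference itself. Its log2 change was -2.08 at D4H8 and -0.41 at D6, and the difference of 1.68 (SE 0.30, adjusted p = 0.0123, edgeR interaction test over 18 libraries) went the same way in all 18 fits that left out a library, 17 of which called it. The summed neural progenitor, MN and cycling cell markers were all lower with GSKJ4 at D4H8, and at D6 each overlapped. Over the 21 libraries the log2 level of Ccnd2 had r = 0.892 with the cycling cell sum, 0.386 with the progenitor sum and -0.757 with the MN sum. After the group means were subtracted these were 0.772, -0.268 and -0.0718. The part of these markers in the result for Ccnd2 was not tested.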

How the results depend on the processing

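No fold change of a member reversed its direction where it was called; 89 uncalled values changed sign under some alternative. Of the log2 changes of the 10 members in 12 contrasts under all alternatives, 2141 stayed on their side of the threshold, those uncalled sign changes among them, 36 gained a call and 31 lost one. DESeq2 called 1 member from D4 to D4H8 (Cdkn2c), 1 with GSKJ4 at D5 (Ccnd2) and, for the differences of the GSKJ4 effect from that at D4H8, 1 at D5 and 2 at D6. Without the filter on low counts there were 4 member calls with GSKJ4 at D4H8, 2 at D5 and, for those differences, 1 and 2. One fit over all 21 libraries called 3 members from D4H8 to D5, 4 with GSKJ4 at D4H8, 5 from D5 to D6 with GSKJ4, and 1 and 2 for the differences. With at least 10 counts in every library 2 members were called for the difference at D6, while RLE and upper-quartile scaling changed no count of members by over 1.5 times. The causes of these changes were not tested.

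When each library was left out in turn, member calls ranged from 0 to 1 from D4 to D4H8 (1 without D6 replicate 1), 3 to 6 from D4H8 to D5 (3 without D4H8 replicate 3), 5 to 5 from D5 to D6 and 8 to 9 from D4 to D6. They ranged from 2 to 3 with GSKJ4 at D4H8, 0 to 0 at D5 and at D6, 0 to 2 for the difference between D6 and D4H8 (0 without D4H8 replicate 1), and, with GSKJ4, from 1 to 3 for D4H8 to D5 and 2 to 4 for D5 to D6.

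With the replicate number as a block, 1 member was called with GSKJ4 at D6 (Ccnd2) and Cdkn2a was added from D5 to D6, both paired contrasts. In contrasts where samples share only a number, the block gave 1 call for the difference at D5 (Ccnd2) and 2 for that at D6 (Ccnd1 and Ccnd2), and called Cdk6 with GSKJ4 at D4H8 (log2 change 0.90, adjusted p = 0.026) and Ccnd3 from D4H8 to D5 with GSKJ4 (0.0314), but not Cdk6 there (0.0618).

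Over all genes, GSKJ4 at D4H8 gave 343 higher and 301 lower calls in the main fit, 1128 and 837 with DESeq2 and 1229 and 1058 without the filter. It gave 1058 and 990 in one fit over all libraries and 1235 and 1039 with the block. Without D4H8 replicate 1, 2 or 3 it gave only 2 and 41, 3 and 47 or 3 and 44, and without treated replicate 2 it gave 998 and 748. At D5 the 1 call became 29 higher and 40 lower with DESeq2 and 49 and 79 without the filter. The difference of its effect at D6 from D4H8 gave 100 higher and 33 lower, 292 and 290 with DESeq2, and 414 and 212 without the filter. Without D4H8 replicate 1 that difference gave 35 and 5, and the step from D4 to D4H8 gave 341 and 9 in place of 711 and 56. Among the treated libraries the lowest counts from D4H8 to D5 were 996 and 128, without D5 replicate 1, in place of 1651 and 801. From D5 to D6 they were 536 and 201, without D6 replicate 1, in place of 1247 and 810. From D4H8 to D5, 3019 higher and 1842 lower became 2064 and 1154 in one fit over all libraries. The median log2 change over all genes between D4 and D6 went from -0.04 to -0.19 with upper-quartile scaling. Counting error weighs most on the members with the fewest counts, Cdkn2b, at 7 to 107 per library, and Cdkn2c at D6.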

Other observations

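The genes whose levels were most like those of a member over the 21 libraries were, by Pearson r of log2 CPM, Gcnt4 (0.971) for Ccnd1, Fndc3c1 (0.979) for Ccnd2, Poc1a (0.947) for Ccnd3 and Baz1a (0.973) for Cdk6. For Cdk4 the 3 most alike were Rps10-ps2 (0.977), a copy of a ribosomal protein gene, and the ribosomal protein genes Rplp1 (0.97) and Rps13 (0.969). For Cdkn2d they were Enho (0.972), Stmn3 (0.972), a neuronal stathmin, and Acot7 (0.968). Cdkn2a was most like Klc3 (0.967), Bst2 (0.962) and Neat1 (0.956), and Cdkn2c most like Cib1 (0.956), Fam83d (0.948) and Cyp26c1 (0.934). Cdkn1b and Cdkn2b had no gene as close: their highest values were 0.779 (Cnot7) and 0.814 (Krt7). The points share groups and libraries, and these values are descriptions.

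The ratio of the summed D cyclin FPKM to that of Cdk4 and Cdk6 was 0.585 at D4, 0.517 at D4H8, 0.337 at D5 and 0.198 at D6, and 0.29 with GSKJ4 at D4H8, 0.219 at D5 and 0.161 at D6. The ratio of Cdkn1b to the summed D cyclins was 0.452 with GSKJ4 at D4H8, beside 0.159 without, and 0.71 at D5, beside 0.369. These differences were not tested.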
